A study of Mus musculus with 20 samples.

Results

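Epithelial cadherins and nectins, the cell-to-cell adhesion receptors of the adherens junction, were followed through RNA of sorted embryonic mouse skin cells. The set was chosen by gene symbol and held E-cadherin (Cdh1), P-cadherin (Cdh3), T-cadherin (Cdh13), p120-catenin (Ctnnd1) and nectin-1 to nectin-4 under their older symbols Pvrl1, Pvrl2, Pvrl3 and Pvrl4, which made 8 of the 23432 gene symbols counted. All 8 passed the filter on low counts in every comparison. The set and the gene lists used below were chosen with earlier results of these data known. Counts of genes called beside shares of all genes therefore describe them and test nothing.

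The 12 RNA libraries fell into 4 groups of 3. KO epidermis at embryonic day 13 (E13) carried the genotype labelled {delta}Np63 -GFP KI-KO, and Het epidermis at E13 the genotype labelled {delta}Np63 -GFP KI-Het. Het epidermis at E9 (replicates 1, 2 and 4) and Het dermis at E13 carried the Het genotype too, so every group had the GFP knock-in and no library came from mice without it. Epidermal cells of back skin were sorted for GFP and dermal cells with an antibody to CD140a. Ribosomal RNA was removed from the epidermal samples, whereas oligo(dT) selection was used for the dermal ones, so tissue and preparation cannot be told apart in any comparison with dermis. The labels do not say that replicates were separate animals, and p-values measure the spread between libraries, which may be technical.

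Classical cadherins such as E-cadherin and P-cadherin bind the same cadherin on the neighbouring cell, and their tails hold p120-catenin and beta-catenin. Nectins are immunoglobulin-like receptors that bind one another across the cell gap and are tied to actin by afadin. T-cadherin lacks a cytoplasmic tail and is held in the membrane by a lipid anchor. In humans, inherited mutations of P-cadherin, of nectin-1 and of nectin-4 cause ectodermal dysplasias of hair, limb or face, as do mutations of p63, the transcription factor whose deltaN form the knock-in targets.

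Gene counts summed to between 3373819 and 7777808 per epidermal library and between 16931664 and 33386872 per dermal library. Levels are given as CPM, counts scaled to a common library size after adjusting the totals by TMM, and are compared within a gene only, since they are not divided by transcript length. Trp63, the targeted gene, had 23.0, 25.0 and 20.4 CPM in KO epidermis, against 519.5, 611 and 454 CPM in Het epidermis at E13. It had 278, 218 and 122 CPM in Het epidermis at E9 and at most 2.15 CPM in dermis. Among the epidermal groups it was lowest in the libraries labelled KO. The fewest genes were detected in Het epidermis replicate 1 at E13 (10765) and in KO replicate 3 (11275). Markers of basal epidermis and of dermal mesenchyme were summed in each library. The 6 basal markers summed to 259 to 371 CPM in KO epidermis, 2798 to 3566 CPM in Het epidermis at E13 and 214 to 253 CPM at E9. In dermis they summed to 66.1 to 78.4 CPM. Itga6 was the largest part of the KO and E9 sums, with means of 145 and 172 CPM, and averaged 64.9 CPM in dermis. The 10 dermal mesenchyme markers summed to 981 to 2033 CPM in KO epidermis and 263 to 1299 CPM in Het epidermis at E13. KO replicate 3 and Het replicate 1 of E13 had 7 of the 10 detected, and Het replicate 3 had 9. At E9 these markers summed to 179 to 241 CPM, with Lum, Dcn, Twist2 and Dpt at 0, and in dermis to 30705 to 41613 CPM.

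**Figure D1:**
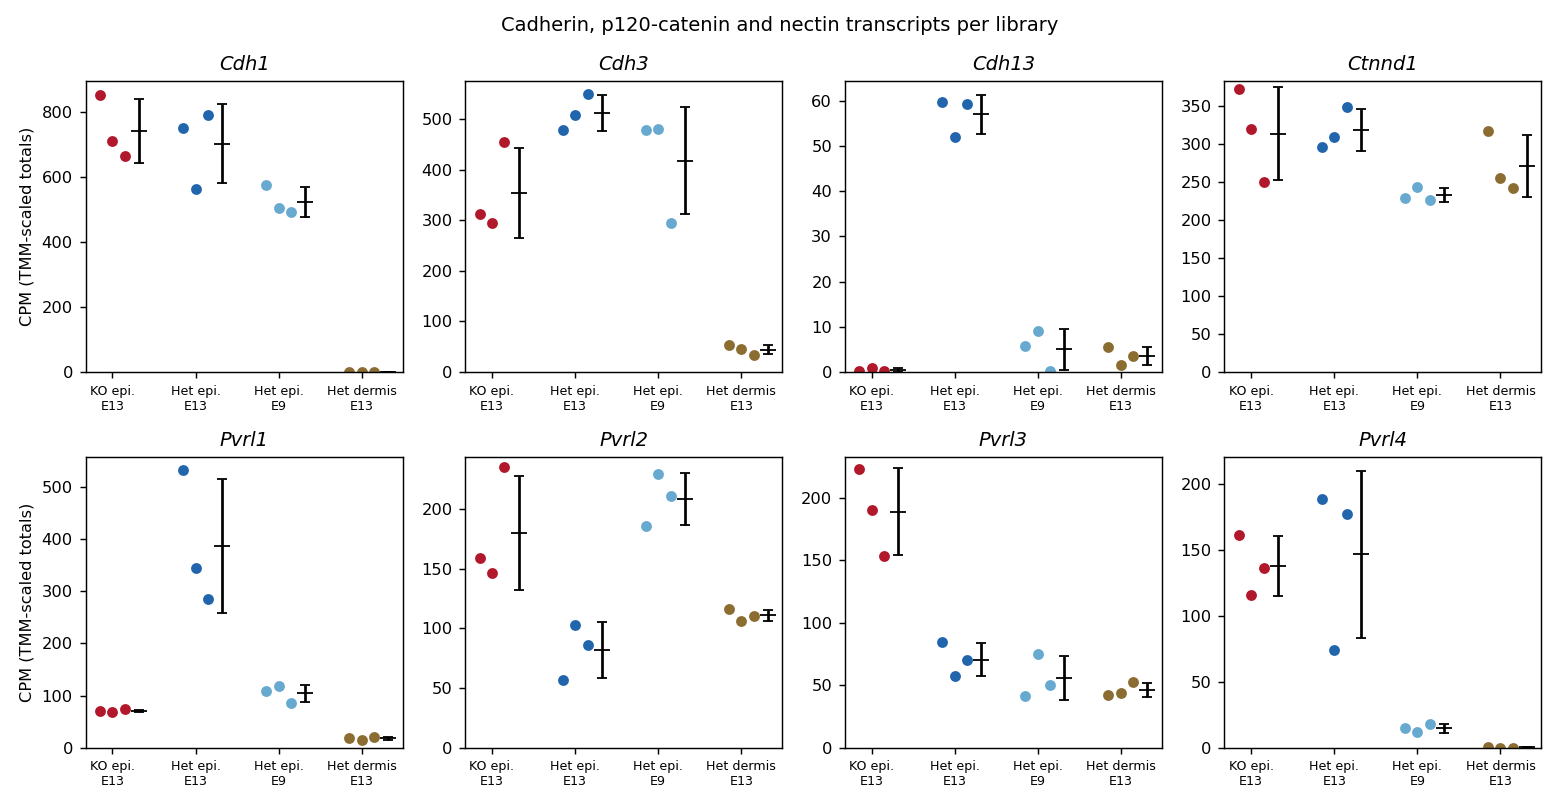
Levels of the 8 genes in scaled counts (CPM) in each of the 12 libraries by group, 1 point per library, with the group mean and SD beside the points. In KO epidermis Pvrl1 averaged 71.0 CPM against 387 CPM in Het epidermis at E13, while Cdh1 averaged 743 CPM in KO epidermis against 702 CPM.

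In KO against Het epidermis at E13, 4 of the 8 genes were called, while E-cadherin and p120-catenin had nearly equal means in both groups and did not pass. Of all 13052 genes tested, 2.2% passed an adjusted p of 0.05 in KO against Het epidermis. T-cadherin and nectin-1 were lower in KO epidermis, and nectin-2 and nectin-3 were higher, against 1.36% of all genes called lower and 0.835% called higher. Of these, T-cadherin passed the filter through Het epidermis, where it was high. For 5 of the 8 genes every KO library lay on one side of every Het library, against 20% of all genes. The median log2 fold change of the 8 genes was -0.07, beside 0.03 over all genes tested. Since the set was chosen with earlier results known, these shares of all genes are no test of it. Tests are edgeR's quasi-likelihood F test with Benjamini-Hochberg adjustment over all genes, and errors of log2 fold changes are standard errors.

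E-cadherin, the main cadherin of surface epithelium, lies on chromosome 8 (106603350 to 106670247, GRCm38.p6). Cdh1 had 853, 710.3 and 665 CPM in KO epidermis, against 751, 563 and 792 CPM in Het epidermis at E13. The libraries of both groups overlapped, and the log2 fold change of 0.07 ± 0.15 (adjusted p = 0.944) did not pass. In Het epidermis at E9 it had 575, 505 and 491 CPM, below every KO library but overlapping Het epidermis at E13, whose replicate 2 lay below E9 replicate 1. The log2 differences, 0.50 ± 0.15 for KO epidermis against E9 (adjusted p = 0.0600) and 0.43 ± 0.15 for Het epidermis at E13 against E9 (adjusted p = 0.109), missed the threshold. Both depended on the tool. The first passed with DESeq2 (adjusted p = 0.0140), voom (0.0101), raw totals (0.0402), no filter (0.0416) and only these groups fitted (0.0270). The second passed with DESeq2 (adjusted p = 0.0475) and without Het replicate 2 at E13, at 0.58 (adjusted p = 0.0297). The order of group means, highest first, was thus KO epidermis, Het epidermis at E13 and Het epidermis at E9. No pair was called in the main fit, so this order is not established.

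P-cadherin is the cadherin of basal epidermal cells and hair placodes, and its gene (106510852 to 106556911) is separated from Cdh1 by 46438 bp on the same chromosome. Cdh3 had 312, 294 and 455 CPM in KO epidermis, against 479, 507 and 549.5 CPM in Het epidermis at E13. Each KO library lay below each Het library of the same day. The difference of -0.54 ± 0.21 on the log2 scale did not pass after adjustment (adjusted p = 0.285, unadjusted p = 0.0207). At E9 Cdh3 had 478, 479.5 and 295 CPM, a range that overlapped both groups of E13. Its log2 differences were 0.30 ± 0.21 for Het epidermis at E13 against E9 (adjusted p = 0.496) and -0.24 ± 0.21 for KO epidermis against E9 (adjusted p = 0.588).

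The share of Cdh3 in the summed counts of Cdh1 and Cdh3 was compared as well, since a ratio within a library does not depend on library scaling. It was 32.3 ± 7.39% in KO epidermis, 42.4 ± 4.42% in Het epidermis at E13 and 43.9 ± 5.74% at E9 (SD, n = 3 each). KO and Het libraries of E13 overlapped, with an exact two-sided permutation p of 0.2 (adjusted p = 0.231 over 15 share tests). With 3 libraries against 3 this test cannot go below 0.1.

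T-cadherin, an atypical cadherin also found on endothelium and known as a receptor of adiponectin, lies further along chromosome 8 (118140017 to 119324929). Cdh13 had 0.152, 0.941 and 0.259 CPM in KO epidermis, from 1, 7 and 1 counts, against 59.6, 52.0 and 59.2 CPM in Het epidermis at E13. The groups were far apart, with every KO library under 1 CPM. The log2 fold change was -6.85 ± 1.01 (adjusted p = 0.00232), or 115-fold lower in KO epidermis. That ratio rests on 9 KO counts in all. Cdh13 passed the filter of the epidermal fit through Het epidermis at E13, where it was high. At E9 its libraries differed widely, with 5.81 CPM in replicate 1, 9.16 CPM in replicate 2 and 0.230 CPM, from 1 count, in replicate 4. Het epidermis at E13 was above E9 in every library, by 3.47 ± 0.82 on the log2 scale (adjusted p = 0.0206). That call was lost without E9 replicate 1 (3.55, adjusted p = 0.0849) and without Het replicate 1 of E13 (3.42, adjusted p = 0.0505).

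KO epidermis was lower than E9 for Cdh13 by the same test (log2 fold change -3.37 ± 0.94, adjusted p = 0.0447), although E9 replicate 4 lay inside the KO range. Cdh13 passed the filter of that fit through Het epidermis at E13 (264, 421 and 348 counts), a group outside the comparison. At E9 it had 41, 52 and 1 counts, so the call carries little weight. Leaving out E9 replicate 1, E9 replicate 2, KO replicate 1 or KO replicate 3 ended this call, with adjusted p of 0.117, 0.162, 0.166 and 0.141. The 7 endothelial markers summed to 11.4 to 22.4 CPM in KO epidermis and 0 to 27.5 CPM in Het epidermis at E13. The Het library with no endothelial marker count, replicate 1, had 59.6 CPM of Cdh13, the highest of its group. The part of endothelial RNA in the Cdh13 level was not tested.

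p120-catenin binds the cadherin tail next to the membrane and slows cadherin uptake from the surface. Ctnnd1 (chromosome 2, 84587096 to 84658977) had 373, 320.5 and 249.8 CPM in KO epidermis, against 297, 309 and 349.8 CPM in Het epidermis at E13. These ranges overlapped (log2 fold change -0.03 ± 0.15, adjusted p = 0.979). At E9 it had 229, 244 and 227 CPM, below all libraries of E13, at log2 differences of 0.42 ± 0.15 for KO epidermis (adjusted p = 0.119) and 0.45 ± 0.15 for Het epidermis at E13 (adjusted p = 0.0994). Neither passed the threshold with edgeR. Both passed with DESeq2 (adjusted p = 0.0352 for KO epidermis and 0.0252 for Het epidermis at E13) and with voom (0.0109 and 0.0311).

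For the nectins, which changed in different directions, the 250 bases before the annotated start are printed so that their promoters can be set side by side. RefSeq (GRCm38.p6) entries were found for Pvrl2, Pvrl3 and Pvrl4 and for 2 starts of Ctnnd1, 4 of the 8 genes. Each window reads 5′ to 3′ on the gene's own strand, ends at the base before the start, and has every CG dinucleotide in capitals. The windows are chr7:19749574-19749823 (minus strand) for Pvrl2, chr16:46496968-46497217 (minus strand) for Pvrl3 and chr1:171369923-171370172 (plus strand) for Pvrl4. The Pvrl3 window lies within the gene's annotated span.
Pvrl2: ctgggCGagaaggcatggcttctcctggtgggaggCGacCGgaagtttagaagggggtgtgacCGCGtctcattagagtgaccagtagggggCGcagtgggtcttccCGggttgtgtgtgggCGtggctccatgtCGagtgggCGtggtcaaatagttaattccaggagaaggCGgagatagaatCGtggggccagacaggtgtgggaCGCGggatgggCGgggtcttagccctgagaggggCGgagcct
Pvrl3: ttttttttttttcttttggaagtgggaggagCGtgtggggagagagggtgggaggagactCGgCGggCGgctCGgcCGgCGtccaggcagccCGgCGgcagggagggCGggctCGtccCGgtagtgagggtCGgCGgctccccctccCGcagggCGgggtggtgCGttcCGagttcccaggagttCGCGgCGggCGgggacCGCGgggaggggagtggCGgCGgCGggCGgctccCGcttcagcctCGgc
Pvrl4: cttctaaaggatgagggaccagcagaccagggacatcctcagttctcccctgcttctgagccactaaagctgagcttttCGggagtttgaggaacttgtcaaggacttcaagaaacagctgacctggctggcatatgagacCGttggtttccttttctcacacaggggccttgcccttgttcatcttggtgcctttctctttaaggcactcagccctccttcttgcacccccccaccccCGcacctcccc
Pvrl3 had 30 CG dinucleotides and 73.2% G+C, Pvrl2 had 16 and 62.0%, and Pvrl4 had 3 and 54.4%. Over all 32851 windows of this length the medians were 6 CG dinucleotides and 52.4% G+C. The ratio of observed to expected CG was 0.978 for Pvrl3, 0.788 for Pvrl2 and 0.169 for Pvrl4, and 34% of all windows reached 0.6. Of the motifs searched on both strands, CAGGTG, the E-box bound by Snail and Zeb proteins, occurred once, with its first base 53 bases before the start of Pvrl2, and 17.2% of all windows hold it. None of the 3 windows held CATG, 6 bases of any kind and CATG (0.49% of all windows), GCCNNNGGC, the core of AP-2 sites (13.7%), or TATAAA (12.4%). The first of these is a strict form of the core of p53-family sites, and looser forms were not searched.

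Nectin-1 is the nectin of cleft lip and palate with ectodermal dysplasia in humans, and its gene lies on chromosome 9 (43737075 to 43807461). Pvrl1 had 70.3, 69.3 and 73.4 CPM in KO epidermis, against 532, 344 and 285 CPM in Het epidermis at E13. The KO libraries stood close together and far below every Het library. The log2 fold change was -2.46 ± 0.23 (adjusted p = 3.0e-05), 5.50-fold lower in KO epidermis. At E9 Pvrl1 had 108.5, 118.5 and 85.5 CPM. Het epidermis at E13 exceeded E9 by 1.90 ± 0.23 on the log2 scale (adjusted p = 0.000106), a 3.74-fold rise over development. KO libraries all lay below the E9 libraries too, but the difference of -0.56 ± 0.22 did not pass (adjusted p = 0.156).

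Nectin-2, which lies on chromosome 7 (19716644 to 19749573), is expressed in many tissues and is also a ligand of immune receptors. Pvrl2 had 159, 146 and 235 CPM in KO epidermis, against 56.7, 103 and 86.1 CPM in Het epidermis at E13. All KO libraries exceeded all Het libraries, by 1.13 ± 0.24 on the log2 scale (adjusted p = 0.0213, 2.18-fold). That call was lost without Het replicate 1 (0.93, adjusted p = 0.0651) and without KO replicate 3 (0.85, adjusted p = 0.0945). It was lost without both of these libraries, which had the fewest genes detected, at 0.66 (adjusted p = 0.143). At E9 Pvrl2 had 186, 229 and 211 CPM, so Het epidermis at E13 was lower than E9 by the test (-1.34 ± 0.24, adjusted p = 0.00268, 2.53-fold lower). KO epidermis overlapped E9 (-0.21 ± 0.23, adjusted p = 0.697).

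Nectin-3, on chromosome 16 (46387665 to 46498535), is the main partner of nectin-1 across the cell gap. Pvrl3 had 223, 190.0 and 153 CPM in KO epidermis, against 84.5, 57.4 and 69.8 CPM in Het epidermis at E13. Each KO library had more than any Het library, with a log2 fold change of 1.41 ± 0.25 (adjusted p = 0.00755, 2.65-fold). That call held when any 1 library was left out, but only just at its weakest (highest adjusted p = 0.04998). At E9 it had 41.3, 75.4 and 50.3 CPM, overlapping Het epidermis at E13 (0.35 ± 0.25, adjusted p = 0.523). KO epidermis exceeded E9 by 1.76 ± 0.26 on the log2 scale (adjusted p = 0.000683, 3.38-fold). KO epidermis thus held the highest level of the 4 groups, while the Het groups of both days did not differ beyond their spread.

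Nectin-4, on chromosome 1 (171370173 to 171388287), is the nectin of the ectodermal dysplasia and syndactyly syndrome in humans. Pvrl4 had 161, 115.6 and 137 CPM in KO epidermis, against 189, 73.9 and 178 CPM in Het epidermis at E13. The KO libraries lay inside the wide Het range (log2 fold change -0.11 ± 0.31, adjusted p = 0.958). At E9 it had 14.6, 11.6 and 18.2 CPM, well under every library of E13. Both groups of E13 rose above E9, Het epidermis by 3.33 ± 0.34 (adjusted p = 4.3e-05) and KO epidermis by 3.22 ± 0.34 (adjusted p = 5.3e-05, 9.32-fold). The 2 comparisons share the E9 libraries.

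**Figure D2:**
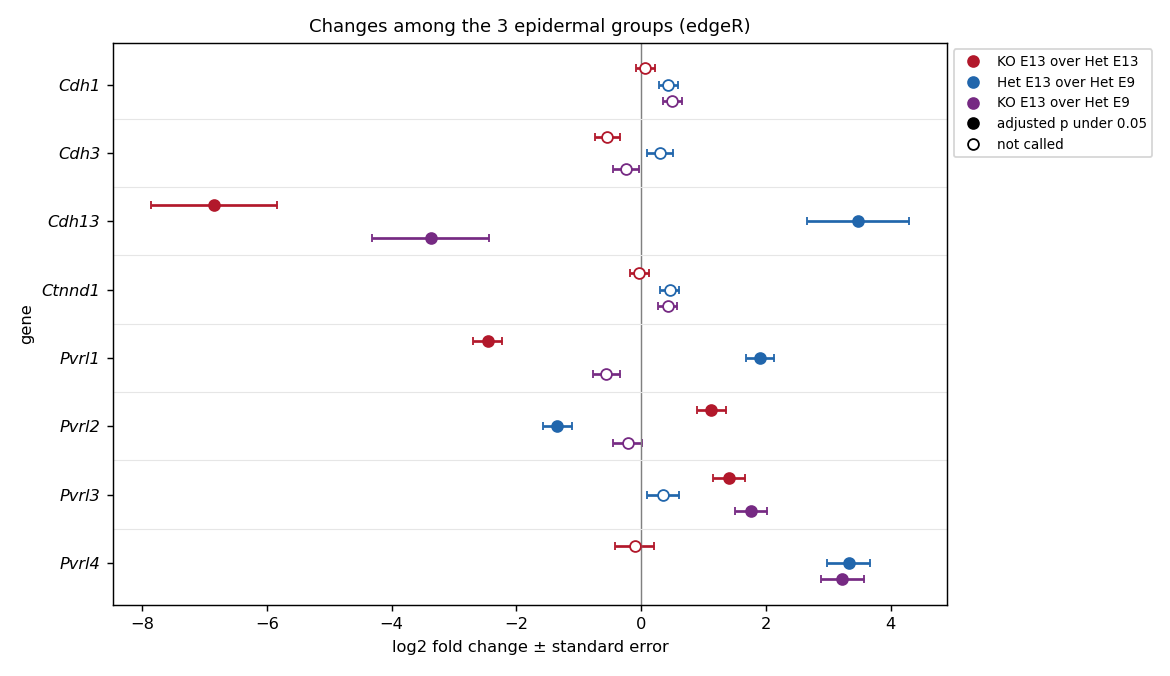
Log2 fold changes with standard errors of the 8 genes in the 3 epidermal comparisons, filled where the adjusted p passed 0.05. Pvrl1 and Cdh13 lie below 0 in KO against Het epidermis and above 0 in Het epidermis at E13 against E9, and Pvrl4 lies above 0 in both comparisons with E9.

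Over development in Het epidermis, Cdh13, Pvrl1 and Pvrl4 rose and Pvrl2 fell, 4 of the 8 genes, against 7.29% of all genes tested (4.77% higher and 2.53% lower). Both ages were fully separated for 5 of the 8 genes, against 29% of all genes. The median log2 fold change of the 8 genes was 0.44, beside 0.00 over all genes. In KO epidermis at E13 against Het epidermis at E9, which also differ in age, Pvrl3 and Pvrl4 were higher and Cdh13 lower, 3 of the 8, against 7.67% of all genes (4.62% higher and 3.05% lower). Of these, Cdh13 passed the filter through Het epidermis at E13, as it did in the other epidermal comparisons. Separation of all libraries was seen for 5 of the 8 genes, against 32% of all genes. Here the median of the 8 genes was 0.10, beside 0.01 over all genes. KO against Het epidermis and Het epidermis at E13 against E9 share the Het libraries of E13, so Pvrl1, Pvrl2 and Cdh13 with opposite signs in them are not independent observations.

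The makeup of nectin RNA was summarised as the share of each nectin in the 4 nectins' summed counts, to compare groups and not nectins with each other. Pvrl1 held 12.3 ± 0.918% in KO epidermis, 55.7 ± 8.43% in Het epidermis at E13 and 27.2 ± 3.77% at E9 (SD, n = 3 each). Pvrl2 held 31.1 ± 7.18% in KO epidermis, 12.8 ± 5.72% in Het epidermis at E13 and 54.6 ± 2.83% at E9. Pvrl3 held 32.8 ± 6.21% in KO epidermis, 10.3 ± 0.821% in Het epidermis at E13 and 14.3 ± 2.81% at E9. The KO libraries did not overlap the Het libraries of E13 for any of these 3 shares. The shares are parts of 1 sum, so a change of 1 nectin moves the others and the separations are not independent. The Pvrl3 share was lower in Het epidermis at E13 than at E9, for example, while its level was not (log2 fold change 0.35 ± 0.25). Pvrl4 held 23.8 ± 2.22% in KO epidermis, 21.1 ± 8.0% in Het epidermis at E13 and 3.94 ± 1.17% at E9, and overlapped between KO and Het libraries of E13. The exact two-sided permutation p was 0.1, the smallest that 3 against 3 allows, for all nectin shares in the 3 epidermal comparisons except Pvrl4 in KO against Het epidermis (p = 0.7). After adjustment over 15 share tests it was 0.136, so no share passed.

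**Figure D3:**
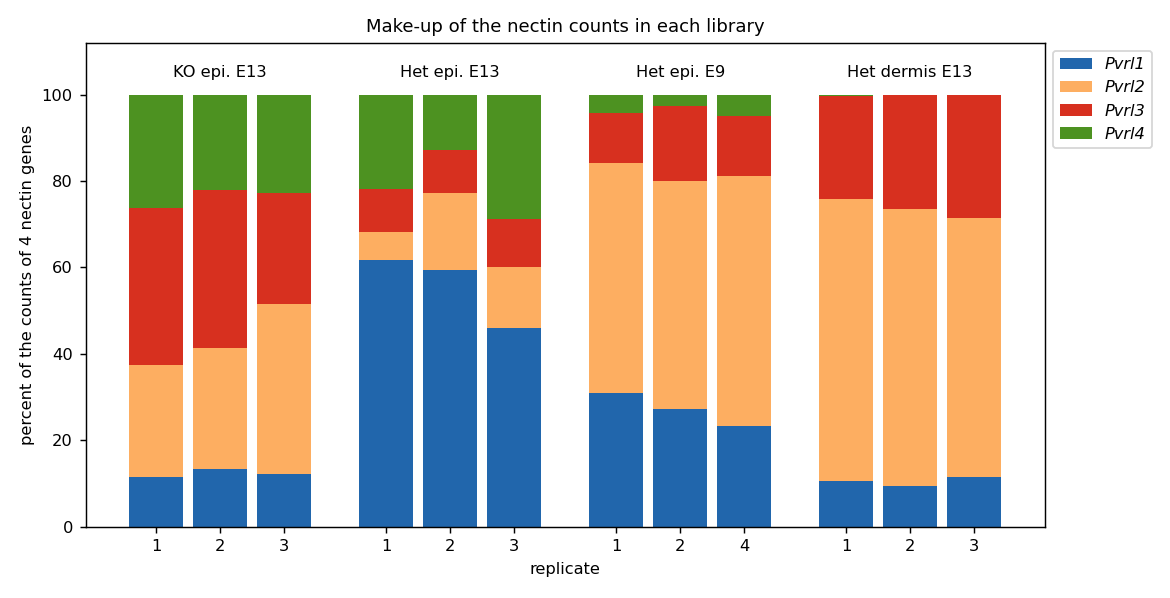
Percent of the summed nectin counts held by each nectin in every library, by group. Pvrl1 averages 12.3% in KO epidermis against 55.7% in Het epidermis at E13, and Pvrl4 averages 23.8% in KO epidermis against 3.94% at E9.

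Markers of other cells are given beside these results, and their part in them was not tested. The 4 simple epithelium markers, all detected, summed to 1845 to 2573 CPM in KO epidermis, and to 386, 259 and 1607 CPM in Het epidermis at E13. Of the 4, Epcam, an adhesion molecule of simple epithelium, passed, at 472 ± 47.5 CPM in KO epidermis and 205 ± 18.7 CPM in Het epidermis (log2 fold change 1.19 ± 0.14, adjusted p = 0.00031). Krt8 (1.82 ± 1.15, adjusted p = 0.665), Krt18 (2.29 ± 1.08, adjusted p = 0.519) and Krt19 (-1.14 ± 0.86, adjusted p = 0.738) did not pass, and Krt19 had the opposite sign. Het replicate 3, with the highest sum of its group, had the lowest Pvrl1 level of that group. Its levels of Pvrl2 (86.1 CPM), Pvrl3 (69.8 CPM) and Cdh13 (59.2 CPM) lay between those of Het replicates 1 and 2. The summed dermal mesenchyme markers were 981, 2033 and 1134.5 CPM in KO epidermis and 283, 1299 and 263 CPM in Het epidermis at E13. They overlapped through Het replicate 2. Log2 fold changes were positive for Col3a1 (2.15 ± 0.72, adjusted p = 0.284), Prrx1 (1.73), Pdgfra (0.83), Lum (0.60), Pdgfrb (0.57), Col1a1 (0.46) and Col1a2 (0.43). They were negative for Dcn (-1.17 ± 0.59, adjusted p = 0.507) and Twist2 (-0.34), and none of these markers passed. Dpt did not pass the filter on low counts and was not tested. Dermis itself had less Pvrl2 and Pvrl3 than any KO library, at 107 to 116 CPM of Pvrl2 and 42.1 to 52.5 CPM of Pvrl3. In sorted bulk RNA, fewer cells of a type and less RNA per cell cannot be told apart.

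Against dermis, E-cadherin and nectin-4 marked the epidermal libraries of every genotype and age. Cdh1 was at 9, 0 and 1 counts in the 3 dermal libraries, or 0.520, 0 and 0.0358 CPM, and the 0 counts of replicate 2 allow up to 0.258 CPM. Every epidermal library had 491 CPM or more, and log2 fold changes were 11.92 ± 0.61 for KO epidermis (adjusted p = 8.9e-06), 11.83 ± 0.69 for Het epidermis at E13 (adjusted p = 5.3e-05) and 11.41 ± 0.53 for E9 (adjusted p = 6.9e-07). Pvrl4 was at 11, 0 and 0 counts in dermis, and its log2 fold changes were 9.33 ± 0.82 for KO epidermis (adjusted p = 8.1e-05), 9.42 ± 1.02 for Het epidermis at E13 (adjusted p = 0.000676) and 6.07 ± 1.39 for E9 (adjusted p = 0.00628). These large ratios rest on very few dermal counts and vary with the prior count of the fit.

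P-cadherin and nectin-1 were lower in dermis but well detected. Cdh3 had 52.7, 44.5 and 34.4 CPM in dermis, below every epidermal library. Its log2 fold changes over dermis were 2.99 ± 0.23 for KO epidermis (adjusted p = 2.7e-05), 3.53 ± 0.20 for Het epidermis at E13 (adjusted p = 2.6e-05) and 3.23 ± 0.24 for E9 (adjusted p = 7.4e-06). Pvrl1 had 18.6, 15.7 and 21.3 CPM in dermis, and its log2 fold changes were 1.91 ± 0.24 for KO epidermis (adjusted p = 0.000328), 4.35 ± 0.27 for Het epidermis at E13 (adjusted p = 3.5e-05) and 2.46 ± 0.23 for E9 (adjusted p = 3.3e-05). Both genes were called in all 3 comparisons with dermis.

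Nectin-2, nectin-3 and T-cadherin were each called over dermis in some epidermal groups and not in others, and p120-catenin in none. Pvrl2 had 116, 107 and 111 CPM in dermis and was higher in KO epidermis (0.66 ± 0.19, adjusted p = 0.0253) and at E9 (0.88 ± 0.15, adjusted p = 0.000973), while Het epidermis at E13 did not pass (-0.45 ± 0.24, adjusted p = 0.188). The KO call for Pvrl2 was lost without KO replicate 3 (0.41, adjusted p = 0.0730) or without dermis replicate 1, 2 or 3 (adjusted p of 0.05005, 0.0763 and 0.0814). Pvrl3 passed in KO epidermis at 2.0 ± 0.21 (adjusted p = 0.000126) and not in Het epidermis at E13 (0.58 ± 0.23, adjusted p = 0.0839) or at E9 (0.24 ± 0.27, adjusted p = 0.527). Cdh13 had 5.55, 1.55 and 3.62 CPM in dermis and passed in Het epidermis at E13 at 3.97 ± 0.46 (adjusted p = 0.000468). For KO epidermis its difference from dermis was -2.92 ± 1.40 (adjusted p = 0.138) and for E9 0.51 ± 1.17 (adjusted p = 0.766). Ctnnd1 had 318, 255 and 242 CPM in dermis, overlapping each epidermal group.

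In all, 6 of the 8 genes were higher in KO epidermis than in dermis (35.6% of all genes were called), 5 in Het epidermis at E13 (34.7% of all genes) and 5 at E9 (41.4% of all genes), and every call was in that direction. Genes called higher made up 16.7% of all genes in KO epidermis, 16.5% in Het epidermis at E13 and 18.5% at E9, and genes called lower 18.8%, 18.2% and 22.9%. The libraries did not overlap those of dermis for 7 of the 8 genes in KO epidermis (55.5% of all genes), 7 in Het epidermis at E13 (56%) and 5 at E9 (57%). Median log2 fold changes of the 8 genes over dermis were 1.95 in KO epidermis, 3.75 in Het epidermis at E13 and 1.67 at E9, beside -0.11, -0.13 and -0.12 over all genes. With raw library totals in place of TMM the medians over all genes became 0.39, 0.30 and 0.32, and Ctnnd1 then passed in KO epidermis (0.67, adjusted p = 0.0431) and in Het epidermis at E13 (0.64, adjusted p = 0.0469). Under the same scaling Pvrl3 passed in Het epidermis at E13 (1.04, adjusted p = 0.0157).

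**Figure D4:**
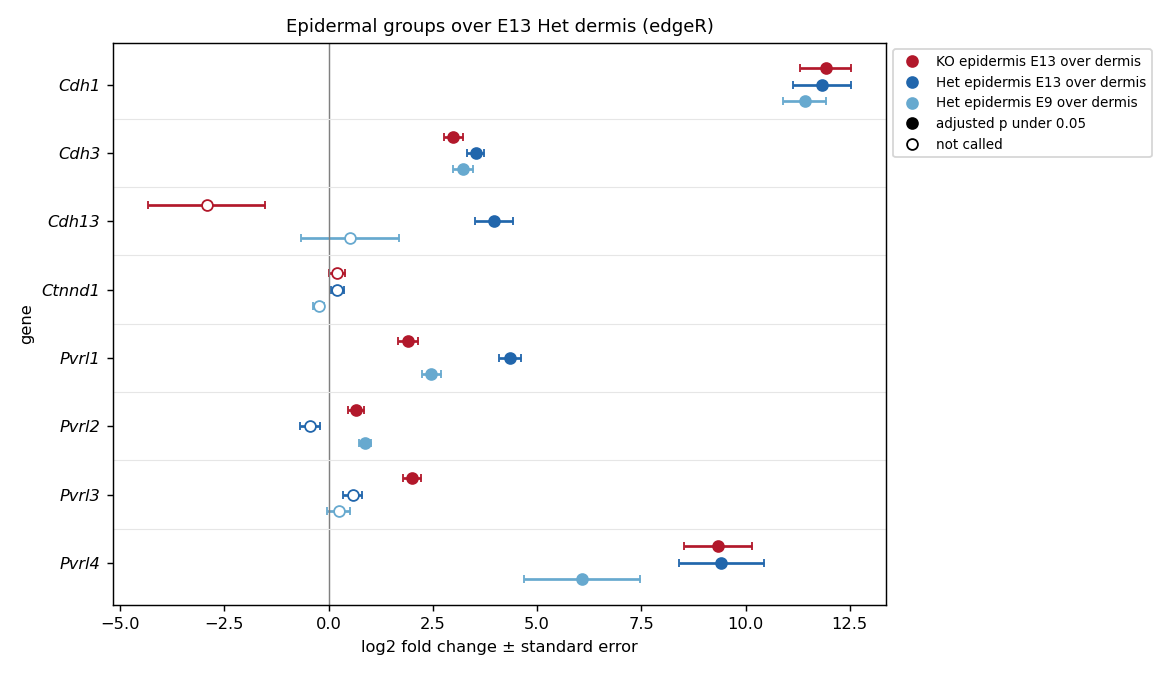
Log2 fold changes over dermis with standard errors of the 8 genes for KO epidermis, Het epidermis at E13 and Het epidermis at E9. Cdh1 lies above 11 in all 3 comparisons and Ctnnd1 between -0.24 and 0.21, and dermal RNA was prepared differently from epidermal RNA.

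The proteins that link these receptors to actin were followed as a list of 23 junction plaque genes, of which 22 were tested. In KO against Het epidermis 1 was higher and 3 were lower, against 0.835% and 1.36% of all genes, with a list median of -0.03 beside 0.03. Ctnnb1, beta-catenin, was lower at 1037 ± 35.0 CPM in KO epidermis and 1721 ± 232 CPM in Het epidermis at E13 (log2 fold change -0.74 ± 0.12, adjusted p = 0.00306). Ajuba, a LIM protein recruited to cadherin junctions, was lower at 75.1 ± 23.1 CPM in KO epidermis and 195 ± 39.3 CPM in Het epidermis (-1.39 ± 0.22, adjusted p = 0.00314). Both calls held when any 1 library was left out. Actn1, an actin crosslinker, was lower (-0.69 ± 0.16, adjusted p = 0.0384) and Ssx2ip, an afadin-binding protein, higher (1.41 ± 0.33, adjusted p = 0.0415). Each of these calls was lost without Het replicate 1 or 2 or KO replicate 1, 2 or 3, with adjusted p of 0.0844 to 0.149 for Actn1 and 0.0770 to 0.175 for Ssx2ip. Mllt4, afadin, the nectin partner, had 374 ± 84.5 CPM in KO epidermis and 561 ± 123 CPM in Het epidermis and did not pass (-0.60 ± 0.18, adjusted p = 0.121).

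Over development in Het epidermis 3 of the 22 plaque genes rose and 3 fell, against 4.77% and 2.53% of all genes, with a median of -0.16 beside 0.00. Ctnnb1 rose (0.84 ± 0.12, adjusted p = 0.00045), as did Lima1, an actin-bundling protein of the junction (1.24 ± 0.25, adjusted p = 0.00702). Tjp1, the tight junction scaffold ZO-1, fell (-0.76 ± 0.16, adjusted p = 0.00752), as did Actn1 (-0.74 ± 0.16, adjusted p = 0.0103). Jup rose and Shroom3 fell too, and no alternative was run for them here. The Tjp1 call was lost without the library of fewest genes in each group (-0.71, adjusted p = 0.0509). In KO epidermis against E9, 2 were higher and 4 lower, against 4.62% and 3.05% of all genes, with a median of -0.21 beside 0.01. Actn1 was lower by the test (-1.44 ± 0.16, adjusted p = 7.9e-05), as was Ajuba (-1.46 ± 0.22, adjusted p = 0.000967), and Lima1 was higher (1.59 ± 0.25, adjusted p = 0.00134). Shroom3, which drives apical constriction, was lower (-0.96 ± 0.22, adjusted p = 0.0148), a call lost without E9 replicate 1 or 4 or KO replicate 1 (adjusted p of 0.0565 to 0.0669).

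Of 19 other cadherins 8 were tested among epidermal libraries, and Cdh6, K-cadherin, was the one called in each comparison (1 of 8, against 2.2%, 7.29% and 7.67% of all genes). Cdh6 had 197 ± 39.1 CPM in KO epidermis, 39.4 ± 18.9 CPM in Het epidermis at E13 and 5.79 ± 2.14 CPM at E9 (SD, n = 3 each), in that order with no overlap. The log2 fold changes were 2.31 ± 0.38 for KO against Het epidermis (adjusted p = 0.00457), 2.78 ± 0.41 for Het epidermis at E13 against E9 (adjusted p = 0.000867, lost with voom at 2.48, adjusted p = 0.0621) and 5.09 ± 0.44 for KO epidermis against E9 (adjusted p = 1.4e-05). Dermis had 53.7 ± 19.2 CPM, below each KO library. List medians were 0.83, 0.85 and 1.22, in the same order, beside 0.03, 0.00 and 0.01 over all genes.

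Among 8 nectin-like molecules and nectin ligands, 4 were tested among epidermal libraries. Cadm1, a nectin-like adhesion molecule, had 122 ± 2.86 CPM in KO epidermis, 79.2 ± 5.32 CPM in Het epidermis at E13 and 188 ± 23.1 CPM at E9. It fell over development in Het epidermis (-1.24 ± 0.17, adjusted p = 0.000379) and was not called in KO against Het epidermis (0.61 ± 0.17, adjusted p = 0.0937, unadjusted p = 0.00302), and Cadm3, Cadm4 and Pvr had adjusted p of 0.967, 0.891 and 0.913 there. It was called lower in KO epidermis against E9 (-0.63 ± 0.17, adjusted p = 0.0324), a call lost without E9 replicate 1 or 2 or KO replicate 1, 2 or 3 (adjusted p of 0.0647 to 0.186). List medians over the 4 genes were 0.63, -1.23 and -0.60 for KO against Het epidermis, Het epidermis at E13 against E9 and KO epidermis against E9.

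Regulators described for the E-cadherin gene were taken as a list of 16, of which 15 were tested. The list includes Esrp1 and Esrp2, which are splicing factors. In KO against Het epidermis 2 were called, both lower, against 1.36% of all genes called lower, with a list median of -0.06 beside 0.03 over all genes. Snai2, the repressor Slug, had 8.69 ± 5.85 CPM in KO epidermis and 71.9 ± 10.2 CPM in Het epidermis at E13 (-3.07 ± 0.59, adjusted p = 0.0143), and missed the threshold without both libraries of fewest genes detected (-3.36, adjusted p = 0.0745). Grhl3, a grainyhead factor of surface epithelium, had 79.6 ± 19.9 CPM in KO epidermis and 208 ± 85.1 CPM in Het epidermis (-1.40 ± 0.32, adjusted p = 0.0371). Without Het replicate 1 or 3 or any 1 KO replicate the Grhl3 call was lost (adjusted p of 0.0607 to 0.167). Over development in Het epidermis Grhl3 (2.45 ± 0.33, adjusted p = 0.000438) and Grhl1 (1.66 ± 0.34, adjusted p = 0.00699) rose, against 4.77% of all genes, with a list median of 0.95 beside 0.00. The Grhl1 call was lost with all 12 libraries in 1 fit (adjusted p = 0.0589). In KO epidermis against E9 Grhl1 was higher (2.55 ± 0.35, adjusted p = 0.00036), with a list median of 1.05 beside 0.01. The epithelial splicing factors Esrp1 (0.74 ± 0.18, adjusted p = 0.0218) and Esrp2 (2.47 ± 0.61, adjusted p = 0.0407) were also called there, which made 3 called higher, against 4.62% of all genes. The Esrp1 call was lost without E9 replicate 1, 2 or 4 or KO replicate 1 or 3 (adjusted p of 0.0508 to 0.0907). The Esrp2 call was lost without E9 replicate 1 or 2 or any 1 KO replicate (adjusted p of 0.0618 to 0.134).

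**Figure D5:**
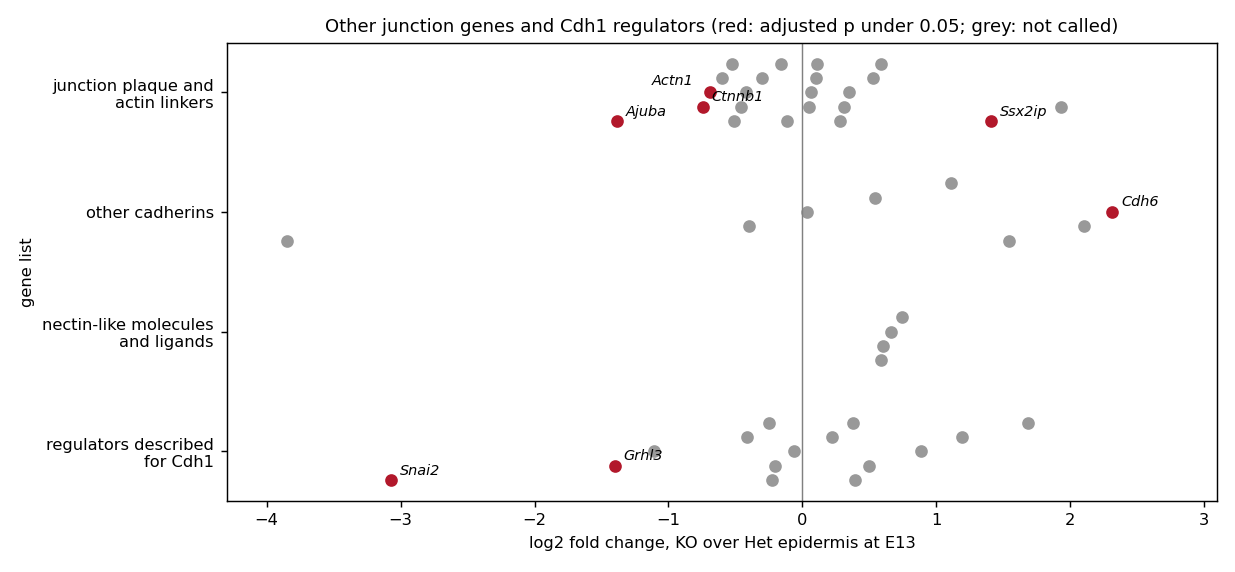
Log2 fold changes in KO over Het epidermis at E13 for the tested genes of the 4 lists, 1 point per gene, red and named where the adjusted p passed 0.05 and grey otherwise. Cdh6 at 2.31 lies highest and Snai2 at -3.07 lowest among the called genes.

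For each of the 5 genes called in an epidermal comparison, the 3 genes of most similar profile over the 9 epidermal libraries were named by the smallest root mean square difference of centred log2 CPM. Nearest to Pvrl1 were Polr3g (0.15), a subunit of RNA polymerase III, Egfr (0.32), the epidermal growth factor receptor, and Fzd6 (0.35), a Wnt receptor, where Pvrl1 itself had a standard deviation of 1.12. Egfr had 81.3 ± 20.8 CPM in KO epidermis, 369.7 ± 22.3 CPM in Het epidermis at E13 and 90.7 ± 22.7 CPM at E9. Nearest to Cdh13 were Fzd10 (0.95), Fam184b (1.16) and Arhgap22 (1.17), and Fzd10, another Wnt receptor, had 5.98 ± 3.91 CPM in KO epidermis, 333 ± 65.1 CPM in Het epidermis at E13 and 22.7 ± 10.3 CPM at E9. These genes share with Pvrl1 and Cdh13 a peak in Het epidermis at E13.

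Nearest to Pvrl2 were Zfp7 (0.19), Stx2 (0.21) and Sh3gl2 (0.22), with Zfp7 at 48.3 ± 6.42 CPM in KO epidermis, 22.6 ± 2.37 CPM in Het epidermis at E13 and 55.0 ± 2.68 CPM at E9. Nearest to Pvrl3 were Tef (0.28), Adcy1 (0.31) and Med12l (0.32), with Adcy1, an adenylate cyclase, at 177 ± 35.9 CPM in KO epidermis, 73.8 ± 27.8 CPM in Het epidermis at E13 and 67.2 ± 17.6 CPM at E9. Nearest to Pvrl4 were Reep6 (0.36), Ppfia3 (0.38) and Tap1 (0.40), with Tap1, a peptide transporter of antigen presentation, at 43.1 ± 15.9 CPM in KO epidermis, 36.6 ± 21.0 CPM in Het epidermis at E13 and 5.80 ± 1.35 CPM at E9. The standard deviations of the 3 nectins over the same libraries were 0.70, 0.87 and 1.66. All these profiles come from the same 9 libraries and carry no test.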

How the data were processed

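RNA was measured in 12 libraries of sorted mouse skin cells, and 7 ATAC and 1 ChIP samples were not analysed here. The deposited files hold whole-number counts per gene symbol for each library, which the authors made with TopHat2, Bowtie2, HTSeq and mm10, per the submitters' processing notes, which give no versions or roles. Whether counting used strand is not stated in the labels or notes, but no gene of the set overlaps another counted gene. Summary lines that name no gene, 48.8 to 63.8% of epidermal and 20.2 to 21.6% of dermal totals, were left out.

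Counts were filtered with filterByExpr, scaled by TMM and tested with edgeR 4.0.16 (robust quasi-likelihood fit, R 4.3.3), with p-values adjusted over all genes and a threshold of 0.05. The 9 epidermal libraries shared 1 fit, and each comparison with dermis had a fit of its 6 libraries. CPM values use TMM totals over all 12 libraries. A standard error is the log2 fold change divided by the root of its F statistic. Floors are 3 counts and cover counting error only. Symbols were matched to RefSeq GRCm38.p6 (21570 of 23432 directly, 1688 by synonym). Libraries of a group differed beyond sampling noise, so none was counted as a duplicate. The edgeR test was tried on simulated counts for KO against Het epidermis and for Het epidermis against dermis, both at E13. Other steps were not tried on simulated data.

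All 8 genes were reported whatever their values, with at most 4 called genes per list and comparison, of smallest adjusted p, plus named uncalled genes chosen after their values were seen (Mllt4, Cadm1, Cadm3, Cadm4, Pvr and the cell type markers). The genes and lists were chosen with earlier results of these data known. Alternatives were DESeq2 1.42.0, limma 3.58.1 voom with sample weights, RLE scaling, raw totals, a filter at a mean of 5 CPM, no filter, other sets of libraries, a fit without structural RNAs, a replicate block and leaving out each library.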

Additional observations from a re-analysis of the deposited data

How the results depend on the processing

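Of 27 called comparisons of the 8 genes, 23 kept their call and direction under every alternative run, and Pvrl2 in KO against Het epidermis and against dermis, and Cdh13 in both comparisons with E9, lost it in 17 fits in all. No called value changed sign, and uncalled values passed in 19 fits. Among the losses not given above, Pvrl2 in KO against Het epidermis had an adjusted p of 0.0703 when only these groups were fitted, and Cdh13 in KO epidermis against E9 one of 0.0888 with voom. Leaving out both libraries of fewest genes detected, an alternative chosen after seeing the data, gave Pvrl2 in KO epidermis against dermis 0.42 (adjusted p = 0.126). Cdh3 was called with voom in KO against Het epidermis (-0.75, adjusted p = 0.00326) and in KO epidermis against E9 (-0.55, 0.0114), and against E9 also without the libraries of fewest genes (-0.69, 0.0194). Pvrl1 in KO epidermis against E9 was called with voom (-0.67, 0.0264), and Cdh13 in KO epidermis against dermis with all 12 libraries in 1 fit (-2.87, 0.0337). The count of the 8 genes called in KO epidermis against E9 was 3, and became 5 with DESeq2 and 6 with voom. When each library was left out in turn the counts were 3 to 4 in KO against Het epidermis, 3 to 5 in Het epidermis at E13 against E9, 2 to 3 in KO epidermis against E9, 5 to 6 in KO epidermis against dermis, and 5 in the other comparisons with dermis.

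Uncalled values near 0 changed sign. In KO against Het epidermis Ctnnd1 became 0.040 with voom, 0.026 with raw totals and 0.040 without the libraries of fewest genes, and Pvrl4 became 0.25 with voom and 0.10 without the libraries of fewest genes. Leaving out each library in turn gave -0.17 to 0.074 for Ctnnd1, with 0.048 without Het replicate 3 and 0.074 without KO replicate 3. It gave -0.44 to 0.13 for Pvrl4, with 0.13 without Het replicate 1, 0.053 without Het replicate 3 and 0.0083 without KO replicate 2. It gave -0.088 to 0.17 for Cdh1, with -0.088 without Het replicate 2 and -0.046 without KO replicate 1. At E9 against dermis Ctnnd1 became 0.19 with raw totals, and leaving out each library gave -0.25 to 1.04 for Cdh13 and -0.075 to 0.40 for Pvrl3, both lowest without E9 replicate 2. The difference in the Pvrl4 share between KO and Het epidermis, 2.63 points, ranged from -1.56 (without Het replicate 2) to 6.41, and that in the Cdh3 share between Het epidermis at E13 and E9, -1.47 points, from -4.65 to 0.94 (without E9 replicate 2), with 0.28 without Het replicate 1. The cause of these changes was not tested.

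Same-numbered libraries correlated at -0.06 to 0.25 over 15 pairs, 1 of them over 0.1, so the numbers were not taken as pairs. That pair was KO and Het epidermis replicate 2 at E13. Both had the highest dermal mesenchyme marker sum of their group, 2033 and 1299 CPM. The source of the correlation was not tested. With the replicate block the count of the 8 genes called in KO epidermis against dermis was 5 and Pvrl2 had 0.64 (adjusted p = 0.0529), Cdh3 in Het epidermis at E13 against E9 became -0.030, and the counts of the 8 genes were 4 in KO against Het epidermis and 3 in KO epidermis against E9. Among the lists the block ended the calls of Lima1 (adjusted p = 0.0669), Actn1 (0.0571) and Grhl1 (0.0682) in Het epidermis at E13 against E9, of Ssx2ip (0.0525) and Grhl3 (0.117) in KO against Het epidermis, and of Shroom3 (0.0903), Cadm1 (0.0964) and Esrp1 (0.179) in KO epidermis against E9. Over all genes, calls in KO against Het epidermis were 287 (182 to 824 over the alternatives, the most with DESeq2), in Het epidermis at E13 against E9 952 (569 to 1997) and in KO epidermis against E9 1001 (540 with the replicate block to 2575 with voom). Against dermis they were 4674 in KO epidermis (3477 to 6282), 4504 in Het epidermis at E13 (2934 to 5680) and 5399 at E9 (4243 to 6648). Low counts limit Cdh13 in KO epidermis and at E9, and Cdh1 and Pvrl4 in dermis.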

Other observations

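The lists also differed between epidermis and dermis, with tissue and preparation not separable. Over all genes 16.7% were higher and 18.8% lower in KO epidermis, 16.5% and 18.2% in Het epidermis at E13, and 18.5% and 22.9% at E9. Of 22 junction plaque genes tested, 11 were higher and 5 lower in KO epidermis, 12 higher and 4 lower in Het epidermis at E13, and 13 higher and 5 lower at E9. Mllt4, afadin, exceeded dermis by 2.71 ± 0.22 on the log2 scale in KO epidermis (adjusted p = 3.5e-05), 3.29 ± 0.22 in Het epidermis at E13 (adjusted p = 4.0e-05) and 2.82 ± 0.15 at E9 (adjusted p = 1.0e-06), by edgeR's test. Camsap3, which anchors microtubule ends at epithelial junctions, exceeded it by 4.77 ± 0.32 in KO epidermis, 4.70 ± 0.41 in Het epidermis at E13 and 4.85 ± 0.31 at E9. Of the regulator list, 8 were higher and 6 lower in KO epidermis, 7 higher and 5 lower in Het epidermis at E13, and 7 each way at E9. The splicing factors Esrp1 and Esrp2 were among those higher each time. Grhl2, an activator of the E-cadherin gene, had 175 ± 6.10 CPM in KO epidermis, 231 ± 8.50 CPM in Het epidermis at E13, 198 ± 14.5 CPM at E9 and 0.0578 ± 0.1 CPM in dermis, from 3 dermal counts. Zeb2, a repressor of it, had log2 fold changes over dermis of -4.31 in KO epidermis, -5.44 in Het epidermis at E13 and -5.11 at E9, all called.

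Cdh11, the cadherin of mesenchyme, had 49.6 ± 34.6 CPM in KO epidermis, 22.8 ± 31.2 CPM in Het epidermis at E13, 11.7 ± 4.03 CPM at E9 and 853.6 ± 101 CPM in dermis. Among 11 other cadherins tested it was called lower than dermis in all 3 comparisons, with 1 higher and 1 lower in KO epidermis, 4 lower in Het epidermis at E13 and 5 lower at E9. The other 3 of the 4, Cdh26, Cdh18 and Cdh8, each lost the call when any 1 dermal library was left out (adjusted p of 0.0557 to 0.0750 for Cdh26, 0.0913 to 0.133 for Cdh18 and 0.119 to 0.179 for Cdh8). Cdh26 and Cdh8 also lost it without Het replicate 3 (0.0602 and 0.107), and Cdh18 and Cdh8 without Het replicate 2 (0.0994 and 0.0624). Cdh11 lost it there with no filter (adjusted p = 0.0575). Over all libraries of Het epidermis at E13, Cdh26 had 1 count and Cdh18 had 8, and both passed the filter through dermis. Among the 5 called at E9, Cdh5, Cdh18 and Cdh26 had 0 counts at E9 and passed the filter through dermis. These calls carry little weight. Of nectin-like molecules, Cadm1 was higher than dermis by 2.22 ± 0.19 in KO epidermis, 1.60 ± 0.21 in Het epidermis at E13 and 2.85 ± 0.18 at E9, all called.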
